A study of Homo sapiens with 12 samples.

Results

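The adrenergic receptors are the G protein-coupled receptors for adrenaline and noradrenaline. Alpha-1 receptors couple mainly to Gq and phospholipase C beta, alpha-2 receptors couple to Gi and lower cyclic AMP, and beta receptors couple to Gs and raise cyclic AMP. In the prostate, alpha-1A receptors of the stromal smooth muscle are the target of alpha blockers. The 7 receptor genes described here, ADRA1A, ADRA1B, ADRA1D, ADRA2A, ADRA2B, ADRA2C and ADRB1, were chosen by gene name among the 58735 genes of the count table, and ADRA2A was selected on its large rise with EZH2 inhibition. For that reason every ADRA2A value that compares cells with and without the EZH2 inhibitor is given as a description, with no test.

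The samples are polyA RNA libraries of C4.2B, a castration-resistant line of human prostate cancer cells that descends from LNCaP, in 4 arms of 3 libraries named A, B and C. The DMSO arm received solvent. The AKTi arm received 0.25 μM ipatasertib, an inhibitor of AKT kinases, the EZH2i arm received 1 μM tazemetostat, an inhibitor of the histone methyltransferase EZH2, and the combination arm received both at these doses. Cells of the EZH2i and combination arms had been kept in tazemetostat for 6 days beforehand, whereas the DMSO and AKTi arms had not, and cells of every arm were harvested 24 hours into culture in medium with 10% charcoal-stripped FBS, which is low in steroids. EZH2 is the catalytic subunit of PRC2, which places the repressive mark H3K27me3. All libraries came from 1 cell line. The study's methods describe cells seeded in replicate plates after the pretreatment, and nothing states that the libraries of an arm were independent experiments. P-values therefore measure the spread between these libraries only. In bulk RNA, fewer cells with a transcript and less RNA per cell cannot be told apart.

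Totals ran from 14133755 to 22276417 counts per library, and 16646 genes passed the low-count filter and were tested. The 10 luminal prostate markers, KLK3 and KRT8 among them, were all present at a CPM (counts scaled to the library total) of 1 or more. They summed to 3712 to 3859 CPM in DMSO, 5964 to 6061 CPM under AKTi, 6957 to 7211 CPM under EZH2i and 9400 to 9535 CPM in the combination. Of 7 neuroendocrine markers 1, SYP, reached 1 CPM, and CHGB was at 0 in every library. The 8 smooth muscle and fibroblast markers summed to 9.88 to 13.8 CPM in DMSO, 11.2 to 15.2 CPM under AKTi, 34.2 to 38.9 CPM under EZH2i and 29.6 to 34.2 CPM under both agents, with DES, the muscle intermediate filament, at 0 throughout. The 7 endothelial and leukocyte markers summed to 2.47 to 3.75 CPM in DMSO, 3.44 to 4.32 CPM under AKTi, 7.01 to 7.66 CPM under EZH2i and 6.28 to 9.0 CPM under both agents, with CD3E at 0 throughout. These last 2 sums were higher in the arms with EZH2i than in DMSO, and the smooth muscle and fibroblast sum was not higher in the combination than in EZH2i. The luminal sum rose in each treated arm and was highest in the combination, as ADRA2A was. KLK3 weighed most in it, at 1278 CPM in DMSO and 4206 CPM in the combination. The list did not rise as a whole, since HOXB13 went from 395 to 314 CPM and EPCAM from 118 to 110 CPM. In combination minus DMSO, 8 of the 10 were called higher and 2 lower by edgeR (38.0% and 35.2% over all tested genes). The part of these sums in the results was not tested.

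The promoters of ADRA2A, ADRB1 and ADRA2C are printed here because the receptors they belong to carried enough counts for a test. The RefSeq promoter table (GRCh38.p14), which spans 250 bases before to 50 bases after each start, held 4 of the 7 receptors, and CG dinucleotides are in capitals because EZH2-bound promoters in general tend to be rich in them. The windows are chr10:111076779-111077078 for ADRA2A, chr10:114043616-114043915 for ADRB1 and chr4:3766135-3766434 for ADRA2C, all on the plus strand. By the gene positions deposited with the counts, ADRA2A starts at 111077163 and ADRB1 at 114044056, past the end of their windows. ADRA2C starts at 3766348, inside its window, so by that annotation the windows cover unlike positions.
ADRA2A: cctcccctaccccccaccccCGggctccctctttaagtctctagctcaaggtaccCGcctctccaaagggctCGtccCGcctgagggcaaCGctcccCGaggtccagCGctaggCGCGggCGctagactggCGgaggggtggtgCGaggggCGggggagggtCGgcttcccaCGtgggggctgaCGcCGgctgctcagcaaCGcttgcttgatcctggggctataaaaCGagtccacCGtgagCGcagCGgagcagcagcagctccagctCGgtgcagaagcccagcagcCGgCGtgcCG
ADRB1: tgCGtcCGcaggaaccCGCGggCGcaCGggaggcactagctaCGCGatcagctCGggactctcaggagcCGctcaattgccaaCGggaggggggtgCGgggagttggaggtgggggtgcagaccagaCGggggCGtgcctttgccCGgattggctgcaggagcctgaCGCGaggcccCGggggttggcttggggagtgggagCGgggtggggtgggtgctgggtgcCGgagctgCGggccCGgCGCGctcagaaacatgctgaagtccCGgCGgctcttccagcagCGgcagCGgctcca
ADRA2C: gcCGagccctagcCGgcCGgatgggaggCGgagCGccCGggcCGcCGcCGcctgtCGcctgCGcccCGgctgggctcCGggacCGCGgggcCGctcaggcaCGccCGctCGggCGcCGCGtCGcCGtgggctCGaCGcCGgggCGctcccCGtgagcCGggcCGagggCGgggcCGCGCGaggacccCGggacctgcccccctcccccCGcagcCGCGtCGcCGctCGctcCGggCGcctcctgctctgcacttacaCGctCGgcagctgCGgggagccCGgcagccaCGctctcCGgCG

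The ADRA2A window held 26 CG dinucleotides, more than 69.9% of the 35116 promoters in the table, whose median was 14. The ADRB1 window held 28, more than 73.8%, and the ADRA2C window held 51, more than 99.0%. GC content was 69.3% for ADRA2A, 71.3% for ADRB1 and 83% for ADRA2C, against a median of 58.7%. The CG count of the 3 windows thus rose from ADRA2A to ADRB1 to ADRA2C, and a link to expression was not tested. Searched on both strands, the E-box CACGTG was present in the ADRA2A window and absent from those of ADRB1 and ADRA2C, and 7.26% of all promoters held it. The core of the cyclic AMP response element, TGACG, was present in the ADRA2A and ADRB1 windows and in 24.6% of all promoters, and the FOXO motif TGTTTAC was in none of the 3 windows and in 3.42% of all. The matches in ADRA2A do not overlap each other.

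ADRA2A encodes the alpha-2A receptor, the Gi-coupled subtype that acts as a presynaptic autoreceptor in neurons. It is a single-exon gene at hg38 chr10:111077163-111080907 on the plus strand, with no annotated gene overlapping it. Normalised read counts (count divided by the size factor of the library) were 18.6, 16.7 and 15.02 in DMSO, 58.3, 61.5 and 128.7 with AKTi, 2157, 1853 and 2005 with EZH2i and 7607, 7965 and 7132 in the combination. The libraries of the 4 arms did not overlap, and AKTi library C stood above the other 2 of its arm.

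The mean rose from 16.8 ± 1.79 in DMSO to 2005 ± 152 in EZH2i (SD, n = 3), a ratio of 119, and to 7568 ± 418 in the combination, a ratio of 451. On the log2 scale of the fitted model these differences were 6.92 ± 0.15 (SE) and 8.84 ± 0.14. Only 18 of the 16646 tested genes had a larger log2 fold change in EZH2i, and 4 in the combination. Over AKTi, the combination was 91.4-fold higher, with a log2 fold change of 6.52 ± 0.12. These are the values on which, or near which, the gene was chosen.

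AKT inhibition was not used in the choice of ADRA2A, although its comparisons share the DMSO or EZH2i libraries with the one that was. AKTi alone took ADRA2A to 82.8 ± 39.8 (SD, n = 3), 4.94-fold its level in DMSO, with a log2 fold change of 2.33 ± 0.26 (SE, adjusted p = 3.4e-09, edgeR quasi-likelihood test). Without AKTi library C the ratio was 3.57. Added to EZH2i, AKTi raised ADRA2A 3.77-fold, with a log2 fold change of 1.93 ± 0.079 (SE, adjusted p = 1.8e-21, edgeR), and 3 of 3 combination libraries lay above all EZH2i libraries. Among all tested genes, 20.6% were called higher with AKTi alone and 21.1% when AKTi was added to EZH2i, and 82 and 94 genes had a larger log2 fold change than ADRA2A in these comparisons.

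The step with AKTi was thus a difference of 66.0 normalised counts in cells without EZH2i and of 5563 in cells with it. A sum of the single-agent differences would put the combination at 2071 normalised counts and a product of the single-agent ratios at 9896, and the measured mean was 7568. The interaction on the log2 scale, which is the combination minus both single agents plus DMSO, was -0.40 ± 0.29 (SE) and changed sign, to 0.07, without AKTi library C.

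**Figure D1:**
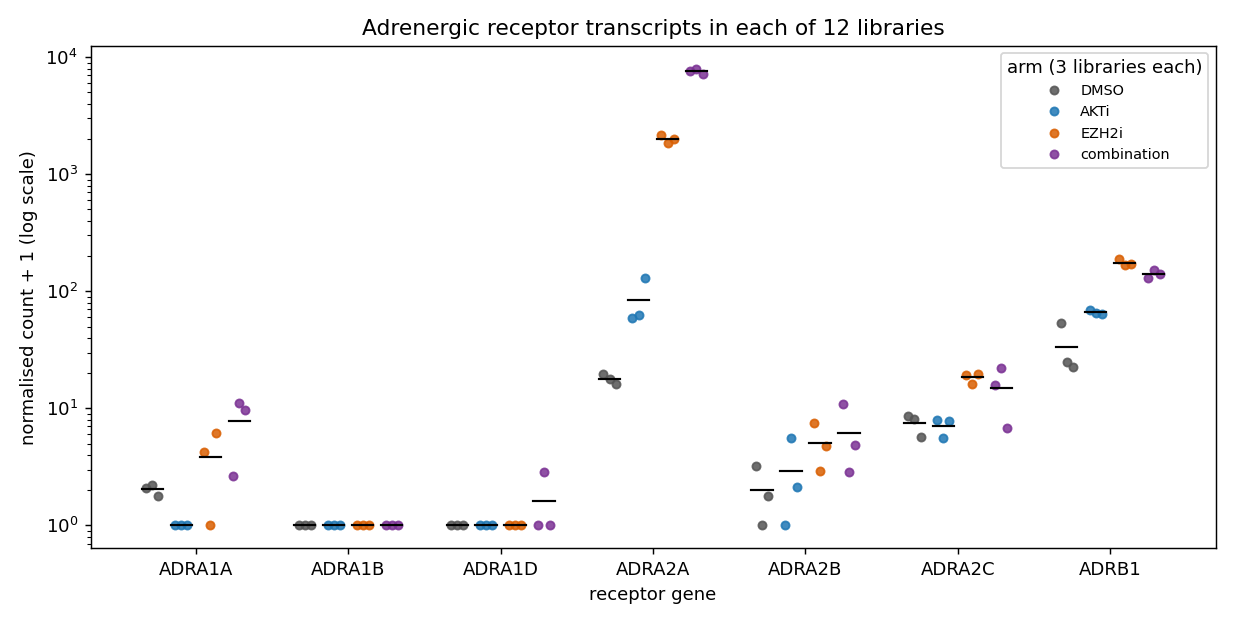
Normalised read count plus 1 on a log axis for the 7 receptor genes in each of 12 libraries, coloured by arm (3 libraries each), with bars at the arm means. ADRA2A spans from 15.02 in the lowest DMSO library to 7965 in the highest combination library, ADRB1 from 21.4 to 186, and ADRA1B has no count in any library.

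ADRA2C, the alpha-2C receptor gene, is a single-exon gene at hg38 chr4:3766348-3768526 on the plus strand. Its normalised counts were 7.66, 7.17 and 4.74 in DMSO, 6.997, 4.55 and 6.77 with AKTi, 18.4, 15.2 and 18.6 with EZH2i and 14.8, 21.3 and 5.81 in the combination. All EZH2i libraries lay above all DMSO libraries, whereas combination library C fell within the DMSO range. These are 4 to 25 raw counts per library, and ADRA2C passed the filter only through the arms with EZH2i, so its comparisons with those arms depend on the filter and are given as values. The log2 fold change was 1.44 ± 0.51 in EZH2i and 1.14 ± 0.52 in the combination against DMSO, and 1.19 ± 0.54 in the combination against AKTi (SE, edgeR). With genes kept from 1 count in total, a filter that uses no arm, the adjusted p was 0.027 for EZH2i and 0.11 for each of the combination comparisons (edgeR). The p-values of that fit match a normal distribution, so they take little account of each gene's own spread between libraries. Under the usual filter, the EZH2i call was lost without DMSO library C (adjusted p = 0.071), the combination call against DMSO held without combination library C (0.012) and was lost without any other library (0.051 to 0.28), and the one against AKTi was gained without combination library C (0.014). With AKTi alone the difference was -0.05 ± 0.61 (adjusted p = 0.96, edgeR), and its sign turned under other scalings.

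ADRA2B, the alpha-2B receptor gene at hg38 chr2:96112875-96116245 on the minus strand, was below the filter. Raw counts were 2, 0 and 1 in DMSO, 0, 4 and 1 with AKTi, 6, 2 and 5 with EZH2i and 12, 2 and 4 in the combination. The arms overlapped in every comparison. Mean normalised counts were 0.993 in DMSO and 5.19 in the combination (exact two-sided permutation p = 0.2, where 3 against 3 libraries cannot go below 0.1, adjusted p = 0.48 over the 12 comparisons of ADRA1A and ADRA2B). Beside the rise of ADRA2A, the 2 related alpha-2 genes thus had 25 raw counts or fewer in every library.

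ADRB1 encodes the beta-1 receptor, the Gs-coupled receptor best known from heart muscle, and lies 2.96 Mb from ADRA2A at hg38 chr10:114044056-114046908 on the plus strand. Its normalised counts were 52.5, 23.9 and 21.4 in DMSO, 68.8, 64.9 and 63.2 with AKTi, 186, 166 and 169 with EZH2i and 129, 150 and 140 in the combination. DMSO library A was above the other 2 of its arm, yet all treated libraries lay above all DMSO libraries, and all combination libraries lay below all EZH2i libraries.

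EZH2i raised ADRB1 5.33-fold, with a log2 fold change of 2.45 ± 0.21 (SE, adjusted p = 1.1e-12, edgeR). The combination raised it 4.28-fold over DMSO (2.14 ± 0.21, adjusted p = 3.0e-11, edgeR) and 2.12-fold over AKTi (1.09 ± 0.20, adjusted p = 7.7e-06, edgeR). AKTi alone raised it 2.01-fold (1.05 ± 0.24, adjusted p = 4.4e-04, edgeR). Without DMSO library A the ratios to DMSO were 2.90 for AKTi and 7.68 for EZH2i. Adding AKTi to EZH2i gave a log2 fold change of -0.31 ± 0.17 (adjusted p = 0.15, edgeR). The step with AKTi therefore differed between cells without and with EZH2i, with an interaction of -1.36 ± 0.29 on the log2 scale (adjusted p = 5.0e-04, edgeR), and 17.5% of tested genes had a negative interaction call.

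**Figure D2:**
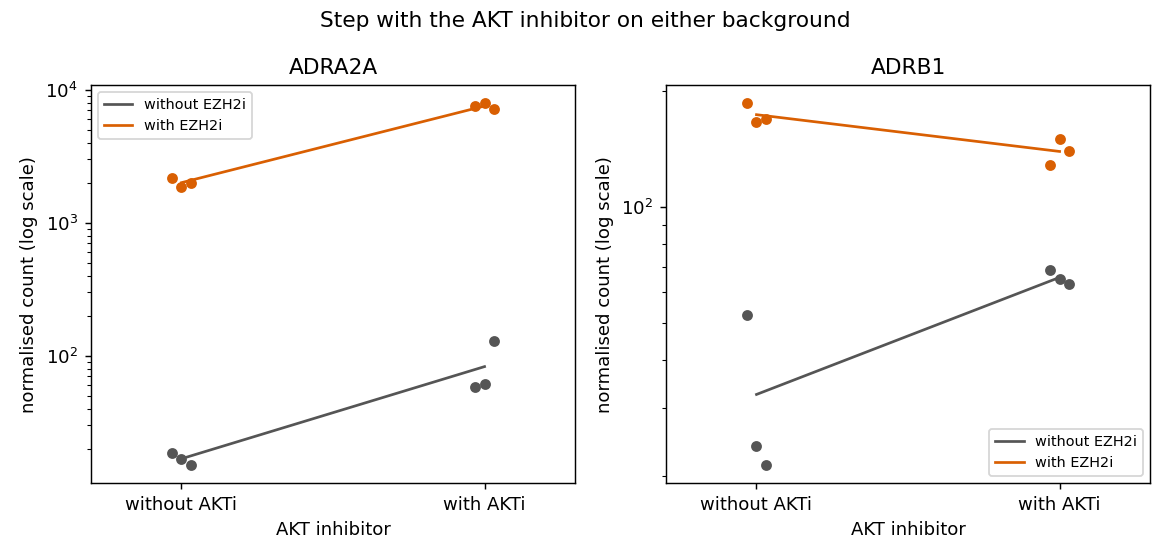
Normalised read count on a log axis for ADRA2A (left) and ADRB1 (right) without and with AKTi, in cells without EZH2i (grey) and with EZH2i (orange). Points are libraries (3 per arm) and lines join arm means. ADRA2A goes from 16.8 to 82.8 and from 2005 to 7568, whereas ADRB1 goes from 32.6 to 65.6 and from 174 to 139.

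Beside ADRA2A, 2 receptors could be tested, and few members make these counts coarse. AKTi minus DMSO called 1 of 2 higher (background 20.6% of tested genes). EZH2i minus DMSO called 2 of 2 higher (background 32.6%), as did combination minus DMSO (background 38.0%), but ADRA2C was among the 2 only because the arms with EZH2i passed the filter, which leaves ADRB1 as the receptor whose test did not depend on it. Combination minus AKTi called 1 of 2 higher (background 32.1%). Combination minus EZH2i called 0 of 2 by edgeR in either direction, where 21.1% of tested genes were higher and 25.7% lower, and DESeq2 also called 0. At an unadjusted p under 0.05 the edgeR count was 0 as well. At 1 or 2 genes these counts say little against the background.

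**Figure D3:**
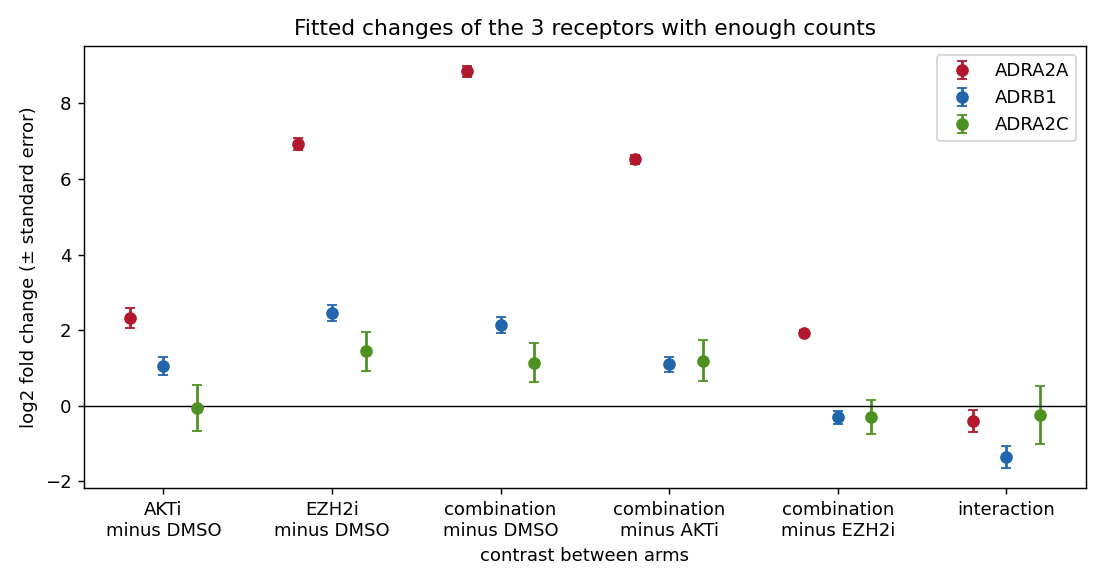
Log2 fold change (points) and standard error (bars) from the edgeR fit over 12 libraries for ADRA2A, ADRB1 and ADRA2C in 5 comparisons of arms and their interaction. ADRA2A reaches 6.92 in EZH2i and 8.84 in the combination, ADRB1 2.45 and 2.14, and ADRA2C 1.44 and 1.14.

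The alpha-1 genes, which encode the Gq-coupled receptors, were near or at 0. ADRA1A, a gene of 3 exons on chromosome 8, had 1 count in each DMSO library, 0 in each AKTi library, 3, 0 and 7 with EZH2i and 2, 11 and 9 in the combination. The combination libraries did not overlap those of DMSO, with means of 6.85 and 1.03 normalised counts, nor those of AKTi (exact permutation p = 0.1 for each, the smallest that 3 against 3 allows, adjusted p = 0.4). With the filter lowered to 1 count in total, edgeR gave ADRA1A an adjusted p of 0.069 against DMSO and 0.0026 against AKTi. Both come from the fit that takes little account of a gene's own spread between libraries. Its span holds 2 annotated pseudogenes, and without a stated strand setting their reads could not be separated. ADRA1D, at hg38 chr20:4220631-4249074, had 2 counts in combination library B and 0 in the other 11 libraries. ADRA1B, at hg38 chr5:159865080-159972544, had 0 counts in all 12, which at 199124121 counts in total allows up to 0.0151 CPM (3 counts, counting error only).

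Levels were compared between genes as normalised counts per kilobase of gene length. In DMSO the order of the members was ADRB1 at 11.4, ADRA2A at 4.48, ADRA2C at 2.99, ADRA2B at 0.295 and ADRA1A at 0.176, and only ADRA2B and ADRA1A overlapped among neighbours in this order. In AKTi, ADRA2A at 22.1 ± 10.6 and ADRB1 at 23.0 ± 1.00 (SD, n = 3) overlapped. In EZH2i, ADRA2A led at 535, followed by ADRB1 at 60.9 and ADRA2C at 7.98. In the combination, ADRA2A stood at 2021, ADRB1 at 48.9 and ADRA2C at 6.41, and ADRA2C overlapped ADRA2B at 1.54.

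Among the 16646 tested genes, 13.3% had a lower level per kilobase than ADRA2A in DMSO, 31.6% under AKTi, 92.3% under EZH2i and 98.6% under both agents, where ADRA2A ranked 227th. ADRB1 moved less, with 23.2% of genes below it in DMSO, 32.2% under AKTi, 50.1% under EZH2i and 45.1% under both agents. ADRA2C stayed low, with 9.70% of genes below it in DMSO and 14.98% in EZH2i.

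The 5 protein-coding genes whose log2 CPM was most like that of ADRA2A over the 12 libraries were PTPRM, a receptor tyrosine phosphatase (Pearson r = 0.997), GPNMB, a transmembrane glycoprotein (0.996), NDRG1, a stress-responsive gene (0.996), SLC22A23, of the organic ion transporter family (0.996), and VIM, the intermediate filament vimentin (0.995). The 12 libraries fall into 4 arms and share their depth and scaling, so these values describe little beyond the differences between the arms. The log2 fold changes in EZH2i and in the combination were smaller than those of ADRA2A in all 5, at 3.71 and 4.76 for GPNMB, 2.45 and 2.96 for NDRG1 and 1.75 and 2.12 for PTPRM. GPNMB had the highest EZH2i fold change of the 5, from a mean of 152.5 normalised counts in DMSO to 1964. Measured the same way, r with ADRA2A was 0.899 for ADRB1 and 0.719 for ADRA2C.

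The nearest tested protein-coding genes to the receptors, picked after values were known, did not all move with them. SHOC2, 63496 bases to the lower side of ADRA2A, had log2 fold changes of -0.37 ± 0.060 under AKTi, 0.74 ± 0.057 under EZH2i and 1.51 ± 0.057 under both agents (SE, adjusted p = 4.2e-06, 5.6e-14 and 1.4e-23, edgeR). GPAM, 1068957 bases to the higher side, had -0.04 ± 0.066 in EZH2i (adjusted p = 0.61, edgeR) and 0.31 ± 0.065 in the combination (adjusted p = 8.3e-05). For ADRB1, CCDC186 at 73954 bases rose by 0.76 ± 0.069 in EZH2i (adjusted p = 5.6e-12, edgeR), whereas NHLRC2 at 126862 bases gave -0.16 ± 0.079 (adjusted p = 0.080). For ADRA2C, LRPAP1 gave -0.07 ± 0.058 and TMEM128 -0.08 ± 0.11 in EZH2i (adjusted p = 0.32 and 0.51, edgeR).

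Downstream of the receptors lie 5 lists of 75 genes for G proteins, effectors, regulators and catecholamine handling, of which 56 were tested. In EZH2i, 23 were called higher and 14 lower (background 32.6% and 31.5%), with a median log2 fold change of 0.11 against 0.03 over all tested genes. The higher calls include GNAO1, PLCB2 and PDE7B, which passed the filter through their counts under EZH2i. The counts and medians of these lists therefore depend in part on the filter and are not evidence about the lists. In the combination 27 were higher and 16 lower (background 38.0% and 35.2%), with a median of 0.34 against 0.06. With AKTi alone 19 were higher and 11 lower (background 20.6% and 21.9%), with a median of 0.20 against 0.01. Scaling by library size alone gave 30 higher and 9 lower in EZH2i, 32 and 13 in the combination, and 21 and 10 with AKTi.

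**Figure D4:**
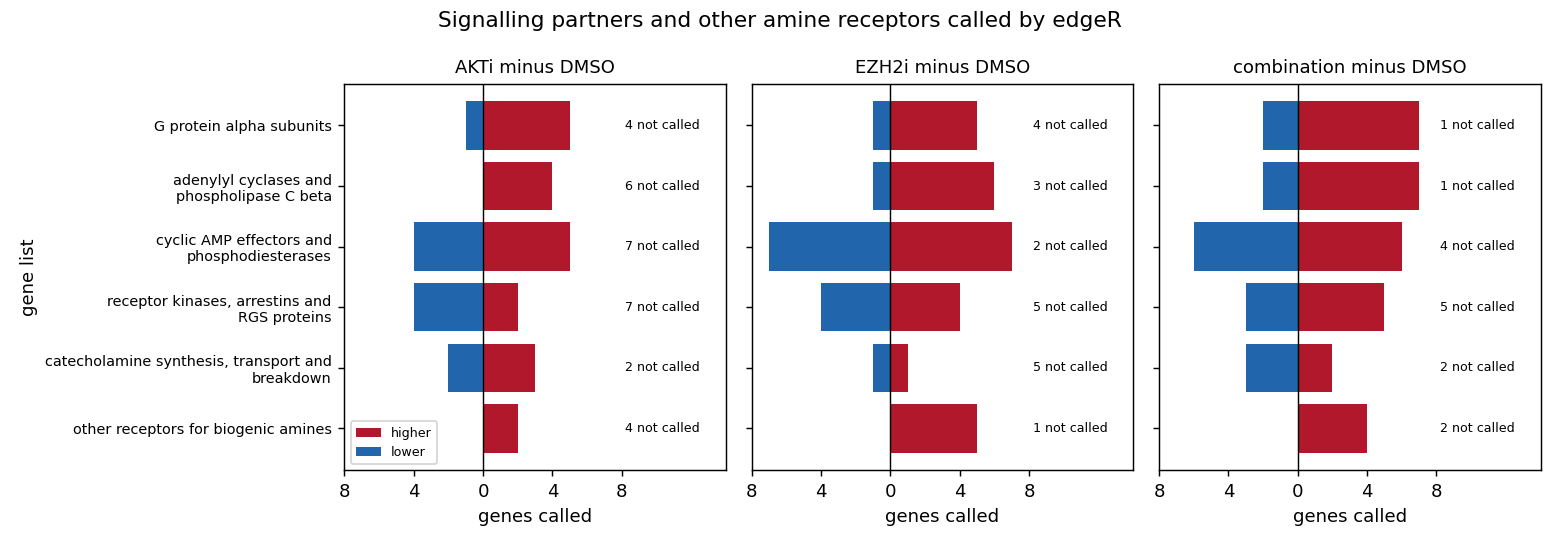
Number of genes called higher (red, right of 0) and lower (blue, left of 0) by edgeR in 6 gene lists for AKTi, EZH2i and the combination against DMSO, with the number tested but not called written beside each bar. In EZH2i, G protein alpha subunits show 5 higher and 1 lower, and the other receptors for biogenic amines 5 higher and 0 lower. Some of the genes called higher passed the filter only through arms with EZH2i. Over all tested genes, 32.6% were higher and 31.5% lower in EZH2i.

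Of 10 tested G protein alpha subunits, 5 were higher and 1 lower in EZH2i (32.6% and 31.5% over all tested genes). GNAO1, of the Gi/o class through which alpha-2 receptors act, went from 5.99 ± 1.49 normalised counts in DMSO to 30.1 ± 5.25 in EZH2i (SD, n = 3), a log2 fold change of 2.31 ± 0.43 (SE). It passed the filter through the arms with EZH2i, so its rise is given as values. GNAI2, another Gi subunit, rose by 0.95 there, whereas GNAI1 and GNAI3 were not called (-0.03 and -0.0015). GNAQ, the Gq subunit of alpha-1 signalling, rose from 158 ± 10.3 to 595 ± 41.1, a log2 fold change of 1.92 ± 0.10 (adjusted p = 2.0e-18, edgeR), and its relative GNA11 fell by 0.40 ± 0.061 (adjusted p = 6.0e-07). GNAS, the Gs subunit of beta signalling, rose by 0.58.

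Of 10 tested adenylyl cyclases and phospholipase C beta enzymes, 6 were higher and 1 lower in EZH2i (32.6% and 31.5% over all tested genes). PLCB2, a target of Gq, went from 0.264 ± 0.457 to 10.2 ± 1.43 normalised counts (SD, n = 3), too low in DMSO for a fold change. It too passed the filter only through the arms with EZH2i, so its rise is given as values. PLCB1 rose by 0.70 ± 0.11 on the log2 scale (SE, adjusted p = 4.0e-07, edgeR). ADCY3, a cyclase that makes cyclic AMP, fell by 1.39 ± 0.13 in EZH2i and by 1.69 ± 0.13 in the combination (adjusted p = 4.0e-12 and 2.3e-14, edgeR).

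Of 16 tested cyclic AMP effectors and phosphodiesterases, 7 were higher and 7 lower in EZH2i (32.6% and 31.5% over all tested genes), and scaling by library size alone left 3 lower. PRKACB, a catalytic subunit of protein kinase A and the highest of the named genes at 18596 normalised counts in DMSO, fell by 0.90 ± 0.053 on the log2 scale (SE, adjusted p = 3.0e-17, edgeR), and PRKAR2B, a regulatory subunit, rose by 0.88 ± 0.081 (adjusted p = 5.3e-12). PDE4A, which breaks down cyclic AMP, fell by 1.43 ± 0.21 (adjusted p = 1.9e-07, edgeR). PDE7B, which passed the filter only through the EZH2i arm, had 3.74 normalised counts in DMSO, 18.6 in EZH2i and 3.67 in the combination. Its log2 fold change in EZH2i was 2.29 ± 0.67 (SE) and 3.22 without DMSO library A.

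Of 13 tested receptor kinases, arrestins and RGS proteins, which end receptor signalling, 4 were higher and 4 lower in EZH2i, close to the 32.6% and 31.5% over all tested genes. RGS2, which acts on Gq, rose by 1.91 ± 0.12 on the log2 scale (SE, adjusted p = 1.1e-16, edgeR), and RGS5 by 1.14 ± 0.21 (adjusted p = 1.4e-05). RGS5 shares reads with an antisense gene of the same name unless counting used strand. RGS14 fell by 1.26 ± 0.11 and GRK6, a kinase of activated receptors, by 0.93 ± 0.074 (adjusted p = 2.1e-12 and 1.3e-13, edgeR).

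Of 15 genes for catecholamine synthesis, transport and breakdown, 7 were tested, with 1 higher and 1 lower in EZH2i (32.6% and 31.5% over all tested genes). TH and DBH, the enzymes that make dopa and noradrenaline, PNMT, which makes adrenaline, and SLC6A2, the noradrenaline transporter, were below the filter. In EZH2i, DDC, the aromatic amino acid decarboxylase, rose by 0.38 ± 0.060 and GCH1, which makes a cofactor of TH, fell by 0.43 ± 0.080 on the log2 scale (SE, adjusted p = 1.1e-06 and 1.5e-05, edgeR). The changes were 0.85 ± 0.059 and -1.03 ± 0.083 in the combination. Between 1 and 3 genes of this list were called higher in EZH2i, depending on scaling, while the percentages above are for the main scaling.

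Of 27 other receptors for biogenic amines, 6 were tested. In EZH2i 5 were higher and 0 lower by edgeR (32.6% and 31.5% over all tested genes), with 0 lower also at an unadjusted p under 0.05. In the combination 4 were higher (38.0% over all tested genes). Genes this low passed the filter largely through arms in which they were high, so the count is not evidence about the list, and a filter of 10 counts in every library left 2 higher in each arm. CHRM3, the M3 muscarinic receptor gene, had no count in DMSO, against 2.27 ± 1.94 normalised counts under AKTi, 10.1 ± 1.29 under EZH2i and 8.25 ± 2.81 under the combination (SD, n = 3). HTR7, a serotonin receptor gene, stood at 1.29 ± 0.257, 3.07 ± 1.38, 18.0 ± 8.57 and 22.3 ± 11.5 in the same order. Neither came near the 7568 normalised counts that ADRA2A reached in the combination.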

How the data were processed

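RNA-seq was done on polyA RNA of the C4.2B line (12 libraries, 4 arms of 3). Per the study's methods the authors used STAR and the hg38 genome for alignment, HTSeq for read counts per gene and DESeq2 for normalization; versions, annotation and strand setting are not given in the sources used here. The deposited counts are whole numbers of reads per gene, with 0 count columns lacking a sample. The deposited signal values are the authors' normalized counts, checked to equal the counts over a size factor that is constant within a library, and columns of gene length came with the counts. Libraries are not tied to a sequencing route in the sources, so no sequencing batch could be modelled.

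Genes with low counts were removed by filterByExpr of edgeR 4.0.16 (count of 10 in enough libraries, total of 15), which kept 16646 of 58735 genes and 3 of 7 receptors, scaled by TMM and fitted in R 4.3.3 by the quasi-likelihood test with 1 mean per arm over all 12 libraries. P-values were adjusted by Benjamini-Hochberg over all tested genes at a threshold of 0.05. Receptors below the filter were compared by exact permutation of normalised counts. Totals of 14133755 to 22276417 counts leave counting error small for ADRA2A and large for genes with few counts. The steps were tested on simulated data. Promoters came from RefSeq (GRCh38.p14), positions of genes from the annotation deposited with the counts (hg38), and exon numbers from GENCODE.

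Named genes are all 7 receptors, from each list the 2 highest and 2 lowest log2 fold changes among its genes called in EZH2i minus DMSO (further list genes beside list counts), and the 5 protein-coding genes with the highest correlation of log2 CPM (prior count 2) with ADRA2A. The members and lists were chosen with earlier results of these data known. As alternatives, DESeq2 1.42.0 was run, TMM was replaced by upper quartile scaling or by library size alone, the count filter was changed, the fit was limited to the arms compared, the replicate letter was added as a block, and single libraries were left out; those for lists and list genes were added after seeing the data. Some genes that met the rule for named genes or stand on the lists are not reported here.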

Additional observations from a re-analysis of the deposited data

Results flagged for a closer look

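The effect of AKTi on ADRB1 differed between cells without and with EZH2i by the interaction test of edgeR, at -1.36 ± 0.29 on the log2 scale (SE, adjusted p = 5.0e-04). ADRB1 rose by 1.05 with AKTi alone, in 3 of 3 libraries above all DMSO libraries, and stood 0.31 lower when AKTi was added to EZH2i, a step that did not pass the test. Leaving out any 1 library gave interactions of -1.86 to -1.07, all past the threshold.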

How the results depend on the processing

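Of the 2 testable receptors other than ADRA2A, those called in EZH2i minus DMSO fell to 1 with at least 10 counts in every library, where ADRA2C is not tested, and ranged from 1 to 2 when each library was left out. In combination minus DMSO the count was 1 with DESeq2, at least 1 count in total, a minimum of 10 counts in every library, a fit of the compared arms alone, or a replicate block, and 1 to 2 without each library. In combination minus AKTi it was 2 with library size only or upper quartile, and 1 to 2 without each library. These changes were calls of ADRA2C (adjusted p = 0.070 in combination minus DMSO with the replicate block). With at least 1 count in total, which tests 5 receptors beside ADRA2A, the count in combination minus AKTi was 2, ADRB1 and ADRA1A, and ADRA2C was not called (adjusted p = 0.11). The p-values of that fit take little account of each gene's own spread between libraries. Same-letter libraries did not deviate together (18 correlations of -0.06 to 0.07, none over 0.1), so the block is no pairing, and it moved the calls over all genes from 12186 to 12146 in that comparison. Library size only moved the median log2 fold change of all genes in combination minus DMSO from 0.06 to 0.26, and upper quartile to 0.25.

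Signs turned as follows. Without 1 library, the ADRA2A interaction ranged from -0.56 to 0.069 (the latter without AKTi library C). ADRA2C in AKTi minus DMSO was 0.0066 with library size only, 0.0054 with upper quartile and -0.27 to 0.098 without 1 library. Without 1 library, ADRA2C ranged from -0.72 to 0.051 in combination minus EZH2i and from -0.67 to 0.10 in the interaction, both turning without combination library C. The cause of these was not tested. The calls of ADRA2A with AKTi and of ADRB1 kept their direction and side of the threshold under every alternative run. Depth limits ADRA2B, ADRA2C and the alpha-1 genes.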
